A study of Mus musculus with 12 samples.

Results

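The set described here comprised 44 genes of the cell division cycle, chosen by name: genes that act in S phase, genes that act in G2 and mitosis, and the D-type cyclins and their kinases that act in G1. The choice was made with earlier results of these data known. Of the 44 genes, 42 were found by symbol among the 33531 genes of the deposited expression table, and all 42 passed the filter on low values that left 13278 genes for testing. By role, 17 were S phase genes, 20 were G2/M genes and 5 were G1 genes. The levels of Cdt1 and Gins2 were not analysed here, and Cdt1 enters only the promoter counts below. The G1 genes belong to the list although its name speaks of S and G2/M, and they are given separately wherever a count is split.

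The libraries came from the major arteries (dorsal aorta, umbilical and vitelline) of mouse embryos at embryonic day 11.5. Fathers carrying Tg(Ly6a-GFP), a transgene in which regulatory sequence of Ly6a drives green fluorescent protein, were mated to F1 mothers of C57BL/6 and 129S1/SVImJ, and the background is given as B6129S. All 122 embryos were positive for the reporter, so GFP+ and GFP- cells were sorted from the same embryos and carried the same transgene. Cells with CD31, CD144 and ESAM on their surface were split by c-Kit into hematopoietic cluster cells (HC, c-Kit+) and endothelial cells (EC, c-Kit-), and each of these by GFP. In all, 53000 HC GFP+, 413000 HC GFP-, 377000 EC GFP+ and 791000 EC GFP- cells were sorted, and RNA-seq libraries were made from 3 pools of each population, 12 libraries in total. The pools are called independent biological samples in the labels. A pool mixes cells of many embryos, and GFP reports the transgene rather than the endogenous gene.

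Progress through the cycle is driven by cyclin-dependent kinases (CDKs), whose activity is set by periodically made cyclins and by inhibitor proteins. D-type cyclins with Cdk4 and Cdk6 and cyclin E with Cdk2 inactivate the retinoblastoma proteins, which releases E2F factors to switch on the genes of DNA replication, and mitotic genes are switched on later by the MuvB complex with B-Myb and FoxM1 and are silenced by MuvB within the DREAM complex in resting cells. Hematopoietic stem cells first emerge from arterial endothelium in clusters at midgestation, and the Ly6a-GFP reporter marks a fraction of the cluster and endothelial cells that contains them.

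Promoters from RefSeq (build GRCm38.p6, 250 bases before to 50 bases after the annotated start, 300 bases in all) were matched by symbol to 36 of the 44 genes, which gave 38 promoters. Ccnd1, Ccnd2, Aurkb, Mcm4, Ccne2, Tpx2, Gins2 and Ccna2 had no entry. The motifs searched on both strands were an E2F motif (TTTGGCGC, TTTCCCGC, TTTGGCGG or TTTCGCGC), the cell cycle genes homology region or CHR (TTTGAA or TTTAAA), to which MuvB binds, and the CCAAT box (CCAAT), bound by NF-Y. At least 1 CHR match was present in 16 of 17 G2/M promoters (94.1%), all but that of Bub1, in 5 of 17 S phase promoters (29.4%) and in 27.6% of the 32851 promoters of all genes. At least 1 E2F match was present in 7 of 17 S phase promoters (41.2%; Cdc6, Cdk2, Cdt1, Mcm3, Mcm5, Mcm6 and Mcm7), in 1 of 17 G2/M promoters (5.88%; Cdk1) and in 2.37% of all promoters. CCAAT was present in 94.1% of the G2/M promoters, 76.5% of the S phase promoters and 37.4% of all promoters. Of the 4 G1 promoters, which belong to 3 genes, none held an E2F or CHR match and 1 held CCAAT.

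A few promoters are printed so that the S phase and the mitotic layout can be compared letter by letter, for genes whose levels are given below. S phase genes are represented by Mcm6 (chr1:128359656-128359955, minus strand), a subunit of the replicative helicase, and by Cdk2 (chr10:128705002-128705301, minus strand), the kinase partner of cyclin E. Mitotic genes are represented by Cdk1 (chr10:69352863-69353162, minus strand), Ccnb1 (chr13:100786437-100786736, minus strand), Aurka (chr2:172370521-172370820, minus strand) and Ube2c (chr2:164769679-164769978, plus strand). Each is written 5′ to 3′ on the strand of the gene, and capitals mark every match to the E2F, CHR or CCAAT letters on either strand, so that GCGGGAAA and GCGCGAAA mark E2F, TTCAAA marks CHR and ATTGG marks CCAAT on the opposite strand.
Mcm6: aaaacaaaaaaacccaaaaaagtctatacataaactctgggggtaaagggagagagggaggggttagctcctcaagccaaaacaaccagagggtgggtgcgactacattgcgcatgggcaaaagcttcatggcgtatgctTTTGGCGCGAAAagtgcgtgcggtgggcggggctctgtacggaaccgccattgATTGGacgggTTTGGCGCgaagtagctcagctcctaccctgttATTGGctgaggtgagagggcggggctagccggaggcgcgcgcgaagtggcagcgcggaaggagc
Cdk2: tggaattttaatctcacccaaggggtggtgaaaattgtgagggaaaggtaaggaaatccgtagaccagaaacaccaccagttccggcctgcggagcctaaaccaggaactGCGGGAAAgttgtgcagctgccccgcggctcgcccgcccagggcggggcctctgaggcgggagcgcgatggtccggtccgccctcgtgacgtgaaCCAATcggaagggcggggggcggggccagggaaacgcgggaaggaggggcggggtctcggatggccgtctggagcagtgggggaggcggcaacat
Cdk1: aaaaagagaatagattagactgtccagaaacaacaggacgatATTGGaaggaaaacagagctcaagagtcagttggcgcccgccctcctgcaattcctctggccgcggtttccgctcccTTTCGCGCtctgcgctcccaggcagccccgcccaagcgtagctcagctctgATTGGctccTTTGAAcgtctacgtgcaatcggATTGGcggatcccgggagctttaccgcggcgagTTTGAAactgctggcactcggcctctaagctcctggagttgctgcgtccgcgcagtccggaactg
Ccnb1: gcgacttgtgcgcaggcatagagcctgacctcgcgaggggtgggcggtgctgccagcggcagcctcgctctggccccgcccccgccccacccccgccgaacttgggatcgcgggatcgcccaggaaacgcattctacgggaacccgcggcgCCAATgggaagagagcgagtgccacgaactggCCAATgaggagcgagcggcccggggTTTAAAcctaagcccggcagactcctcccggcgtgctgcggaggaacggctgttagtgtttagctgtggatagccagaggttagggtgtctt
Aurka: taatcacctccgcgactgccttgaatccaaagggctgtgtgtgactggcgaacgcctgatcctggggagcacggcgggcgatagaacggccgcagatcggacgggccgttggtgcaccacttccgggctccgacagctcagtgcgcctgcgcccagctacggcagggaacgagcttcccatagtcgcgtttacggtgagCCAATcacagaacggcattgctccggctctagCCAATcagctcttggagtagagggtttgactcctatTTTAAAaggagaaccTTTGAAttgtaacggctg
Ube2c: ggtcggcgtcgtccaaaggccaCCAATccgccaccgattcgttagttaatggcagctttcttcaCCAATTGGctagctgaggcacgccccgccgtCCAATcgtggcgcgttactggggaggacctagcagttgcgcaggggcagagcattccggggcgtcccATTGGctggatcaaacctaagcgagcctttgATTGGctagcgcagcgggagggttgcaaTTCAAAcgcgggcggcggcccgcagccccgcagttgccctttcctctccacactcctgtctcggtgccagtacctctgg
In Mcm6 a pair of E2F matches on opposite strands overlap, beginning 110 and 106 bases before the start, and another begins 47 bases before it. The CHR matches nearest the start began 42 bases before it in Ccnb1, 15 bases before it in Cdk1 and 29 bases before it in Ube2c, while both of Aurka lay after it, at 18 and 33. Cdk1 was the one G2/M promoter with an E2F match as well. In Ube2c 2 of the 6 CCAAT matches overlap in the run CCAATTGG. These matches describe letters in a window, and binding was not measured.

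Expression was given as FPKM, fragments per kilobase of transcript, scaled to the number of mapped fragments, which allows levels to be compared between genes. Cdk4, the catalytic partner of the D-type cyclins, had the highest level of the 42 genes, with 588, 691 and 705 FPKM in HC GFP+, 670.3, 717 and 652 in HC GFP-, 566, 685 and 587 in EC GFP+ and 708, 618 and 731 in EC GFP-. Pcna followed with a mean of 288 FPKM over the 12 libraries and Cdk1 with 241 FPKM. Cdk6, the alternative partner of the D-type cyclins, had the lowest level, between 0.806 and 3.12 FPKM, and was the only gene of the set with a mean under 5 FPKM. Every one of the 42 genes was above 0 in every library. Thus most of the S phase, mitotic and G1 genes, though not Cdk6, were expressed at substantial levels in all 4 populations. The differences below are differences of degree. The ratio of the highest to the lowest of the 12 libraries was under 2 for 39 genes, and was 3.87 for Cdk6, 3.24 for Ccne2, the gene of cyclin E2, and 2.04 for Cenpf, a kinetochore gene. The helicase subunit genes varied least, with a ratio of 1.17 for Mcm2 and 1.21 for Mcm3.

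**Figure D1:**
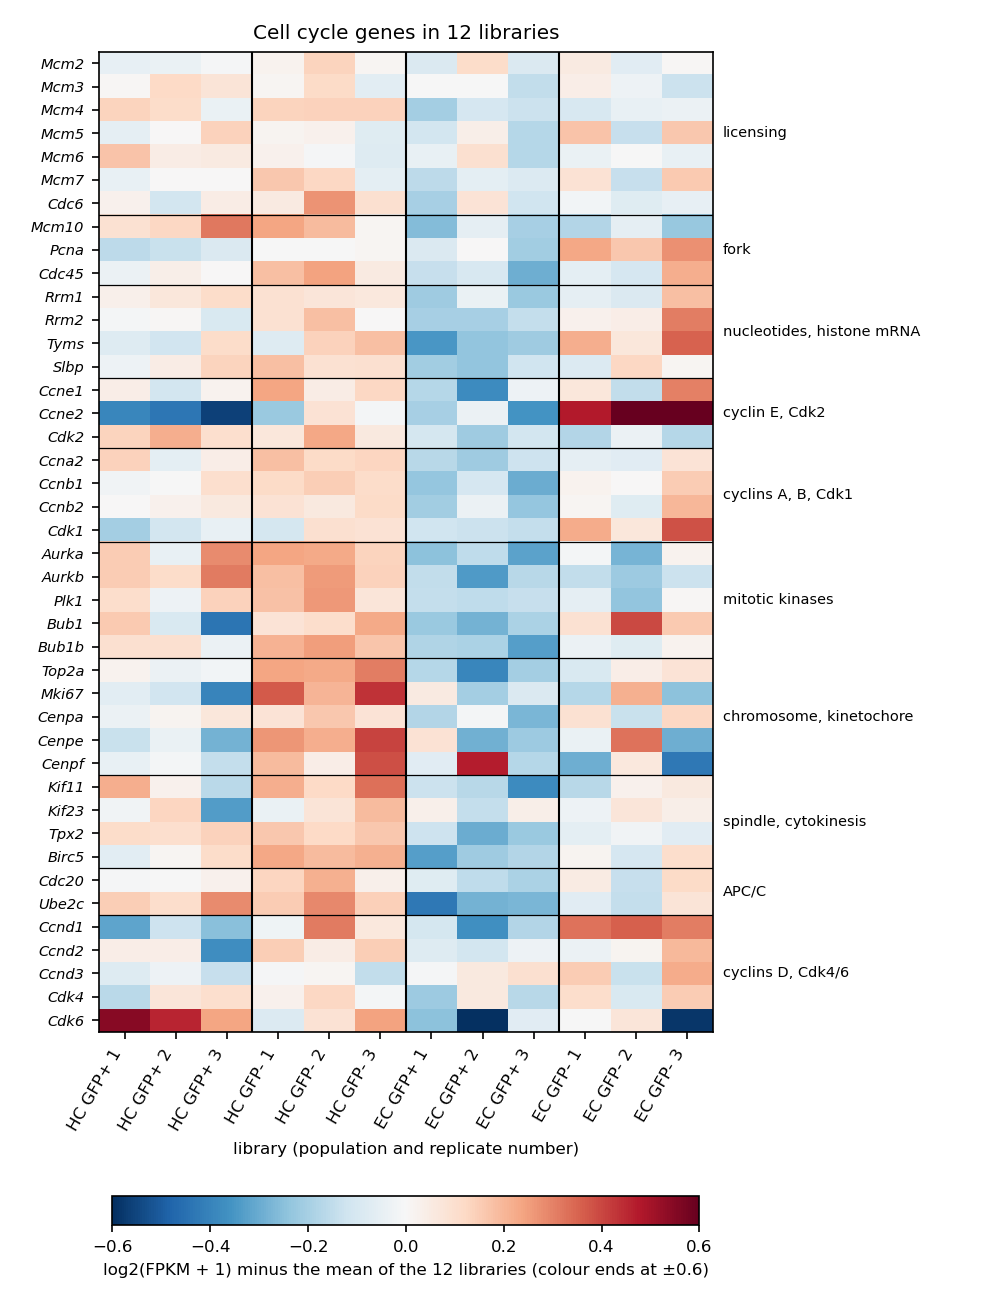
Level of each of the 42 genes in each of the 12 libraries, as log2(FPKM + 1) minus the gene's mean over the 12 libraries, with genes grouped by role and libraries by population. EC GFP+ libraries are mostly below the mean, HC libraries are mostly above it for the mitotic kinases, and Ccne2 and Ccnd1 are highest on average in EC GFP-, with the values as deposited.

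The summed level of the 20 G2/M genes was 1371 to 1429 FPKM in HC GFP+, 1497 to 1554 in HC GFP-, 1189 to 1207 in EC GFP+ and 1332 to 1498 in EC GFP-. On this deposited scale the EC GFP+ libraries were lowest without overlap, and HC GFP+ lay below HC GFP- without overlap. The summed level of the 17 S phase genes was 1212 to 1254 FPKM in HC GFP+, 1253 to 1313 in HC GFP-, 1099 to 1193 in EC GFP+ and 1256 to 1375 in EC GFP-, with EC GFP+ again lowest without overlap and HC GFP- overlapping both HC GFP+ and EC GFP-. In sums of this kind the abundant genes weigh most. As a share of each library's FPKM sum, the endothelial populations overlapped: the G2/M genes took 0.1996% to 0.214% in EC GFP+ and 0.207% to 0.216% in EC GFP-, and the S phase genes 0.197% to 0.198% and 0.195% to 0.201%. The G2/M share was 0.236% to 0.245% in HC GFP+ and stayed below the 0.254% of all 3 HC GFP- libraries.

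Some features of the libraries bear on all comparisons. The sum of all FPKM values ranged from 555674.7 to 691948.5, and it was higher in the EC GFP- libraries (625401.3 to 691948.5) than in any other library. Mitochondrially encoded genes took 8.53% to 8.76% of it in EC GFP- and 3.80% to 6.47% elsewhere. The 8 endothelial markers summed to 1995 to 3771 FPKM in all libraries. Of the 8 hematopoietic markers, 7 had estimates above 0 in both comparisons of HC with EC. Among them, Ptprc (CD45) lay at 2.59 to 13.2 FPKM in HC and 0 to 0.624 in EC, with 1 EC library listed at 0. The exception was Itga2b, which reached 10.6 FPKM in HC and 19.6 in EC. Kit mRNA was present in every population, at 33.2 to 39.2 FPKM in HC GFP+, 19.1 to 25.8 in HC GFP-, 13.3 to 14.5 in EC GFP+ and 12.6 to 18.6 in EC GFP-. Markers of other cell types also differed: 10 erythroid genes summed to 823 to 1140 FPKM in HC GFP+, 6229 to 9552 in HC GFP-, 931 to 2374 in EC GFP+ and 3289 to 7630 in EC GFP-. The 8 macrophage genes summed to 217 to 1338 FPKM in HC and to 7.98 to 29.8 in EC, and 9 mesenchymal genes to 258 to 567 FPKM in the GFP+ and 290.03 to 1340.4 in the GFP- libraries. Of the 9 mesenchymal genes 1 was called lower in EC GFP+ against EC GFP- (background 6.51% of all tested genes). None was called between the HC populations, where 5 were lower at an unadjusted p under 0.05 (limma, background 7.26%). Of all these markers only Ptprc and Gfi1 (2 EC libraries) were listed at 0 anywhere. In pooled cells, fewer cells of a type and less RNA per cell cannot be told apart.

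Within endothelium, some cell cycle genes were lower in GFP+ than in GFP- cells with the values as deposited, while 32 of the 42 did not pass the test, and scaling libraries to an equal FPKM sum turned the sign of 23 estimates. As deposited, 10 of the 42 genes fell and none rose (limma, Benjamini-Hochberg adjusted p under 0.05 over all tested genes), beside a background of 6.51% of all tested genes that were lower and 6.96% that were higher (8.02% and 7.35% among genes with a mean of at least 5 FPKM). At an unadjusted p under 0.05, 15 were lower (background 16.3%) and none was higher (background 12.4%). The largest difference was in Ccne2, which fell by 49.2% on the means, followed by the G1 cyclin gene Ccnd1, which fell by 31.7%, and Tyms, which fell by 28.6%. Of the 42 estimates 41 were below 0, the exception being Cenpf, and the median log2 difference was −0.16, against −0.03 over all tested genes. In 16 genes the EC GFP+ libraries lay below the EC GFP- libraries without overlap (background 16.7%) and in no gene above them (background 14.8%).

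Among the 7 genes of origin licensing, the loading of the helicase onto DNA, none passed the test, and their estimates ranged from −0.15 (Mcm5) to −0.01 (Mcm6). Mcm6 stood at 96.9, 107 and 88.8 FPKM in EC GFP+ and 97.2, 99.8 and 97.0 in EC GFP-, groups that overlapped. At the replication fork, Pcna, the sliding clamp of the DNA polymerases, stood at 269.8, 287 and 248 FPKM in EC GFP+ and 337, 321 and 347 in EC GFP-. All 3 GFP+ libraries lay below all 3 GFP- libraries, and Pcna fell by 0.32 ± 0.065 (SE) on the log2 scale (limma, adjusted p = 0.00894). Mcm10 and Cdc45, which act in helicase activation, differed by −0.02 and −0.20 and were not called.

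Of the 4 genes of nucleotide supply and histone mRNA, 2 fell. Tyms, the thymidylate synthase, stood at 85.0, 92.1 and 93.4 FPKM in EC GFP+ and 126, 114 and 139 in EC GFP-. Rrm2, the S phase subunit of ribonucleotide reductase, stood at 67.7, 67.7 and 70.2 FPKM against 79.2, 79.9 and 96.4. The groups were apart for both genes, with EC GFP- replicate 3 the highest library in each, and the log2 falls were 0.48 ± 0.097 for Tyms (limma, adjusted p = 0.00895) and 0.30 ± 0.083 for Rrm2 (adjusted p = 0.0345). Rrm1, the large subunit, and Slbp, which binds histone mRNA, differed by −0.17 and −0.21 without passing the test.

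Of the cyclin E and Cdk2 genes, Ccne2 stood at 11.5, 12.99 and 10.2 FPKM in EC GFP+ and at 19.0, 20.9 and 28.3 in EC GFP-. The lowest GFP- library was above the highest GFP+ library, and the log2 difference was −0.91 ± 0.15 (limma, adjusted p = 0.00253). Its paralog Ccne1 differed by −0.27 (adjusted p = 0.187) with overlapping groups, and Cdk2 by −0.02.

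Both called genes among the 4 mitotic cyclin and Cdk1 genes encode the parts of the kinase that starts mitosis. Cdk1 stood at 220.2, 219 and 217 FPKM in EC GFP+ and 280.1, 252 and 313 in EC GFP-. Ccnb1, cyclin B1, stood at 52.8, 57.8 and 50.4 against 63.2, 62.4 and 69.1. The groups were apart in both, and the log2 falls were 0.36 ± 0.087 for Cdk1 (limma, adjusted p = 0.0214) and 0.27 ± 0.071 for Ccnb1 (adjusted p = 0.0295). Ccna2, cyclin A2, and Ccnb2 had estimates of −0.15 and −0.20 and were not called. None of the 5 mitotic kinase and checkpoint genes was called, although Bub1, a checkpoint kinase, had an estimate of −0.45 (limma, adjusted p = 0.052) with groups apart.

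Each of 3 further G2/M roles had 1 called gene. Top2a, the topoisomerase that untangles sister chromatids, stood at 98.1, 84.0 and 95.7 FPKM in EC GFP+ and 104, 114 and 117 in EC GFP-. Birc5 (survivin), a subunit of the chromosomal passenger complex, stood at 92.6, 100.5 and 103 against 118, 109 and 125. Ube2c, the ubiquitin-conjugating enzyme of the anaphase-promoting complex, stood at 123, 136 and 137 against 158, 150.2 and 175. All 3 genes had their GFP+ libraries below their GFP- libraries, by margins of a few FPKM in Top2a and Birc5. The log2 falls were 0.27 ± 0.073 for Top2a (limma, adjusted p = 0.0357), 0.25 ± 0.073 for Birc5 (adjusted p = 0.0467) and 0.28 ± 0.081 for Ube2c (adjusted p = 0.0414). Mki67, the gene of the proliferation marker Ki-67, differed by −0.01 ± 0.13 and its groups overlapped.

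Among the G1 genes Ccnd1, cyclin D1, stood at 70.4, 58.5 and 66.9 FPKM in EC GFP+ and 95.2, 97.5 and 94.1 in EC GFP-. All 3 GFP+ libraries lay well below all 3 GFP- libraries, and Ccnd1 fell by 0.55 ± 0.098 on the log2 scale (limma, adjusted p = 0.00448). Ccnd2, Ccnd3, Cdk4 and Cdk6 had estimates between −0.16 and −0.03 with overlapping groups.

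The size and sign of this shift depended on scaling. When every library was scaled to an equal FPKM sum, which moved the median of all genes by 0.17, only Tyms and Ccne2 were still called lower, 24 of the 42 estimates were above 0, and the median of the set was 0.04, against 0.14 for all genes. Under each of the 22 alternative settings the median of the set nevertheless lay below the median of all genes. As the replicate block, the 2-population fit and leaving out an HC library cannot move these medians, those settings are no check of them. Tyms and Ccne2 were called in all 22 alternatives and Ccnd1 in 21, and without any 1 of the 12 libraries these 3 genes and Pcna kept their calls. The other 6 calls were each lost without some libraries (from 4 libraries for Ccnb1 to 10 for Birc5), and the count was lowest, at 4, without EC GFP+ replicate 3 or EC GFP- replicate 3. Transcript length also moved with the comparison: the median difference of all genes ran from −0.18 among the shortest of 5 equal length classes to 0.06 among the longest, and after an adjustment for length 8 genes of the set were called lower, 7 of them among the 10. Of 8 endothelial markers 6 were higher in EC GFP+ and of 10 erythroid markers 7 were lower (limma). The part of length, of these cell types and of mitochondrial transcripts in the result was not tested.

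**Figure D2:**
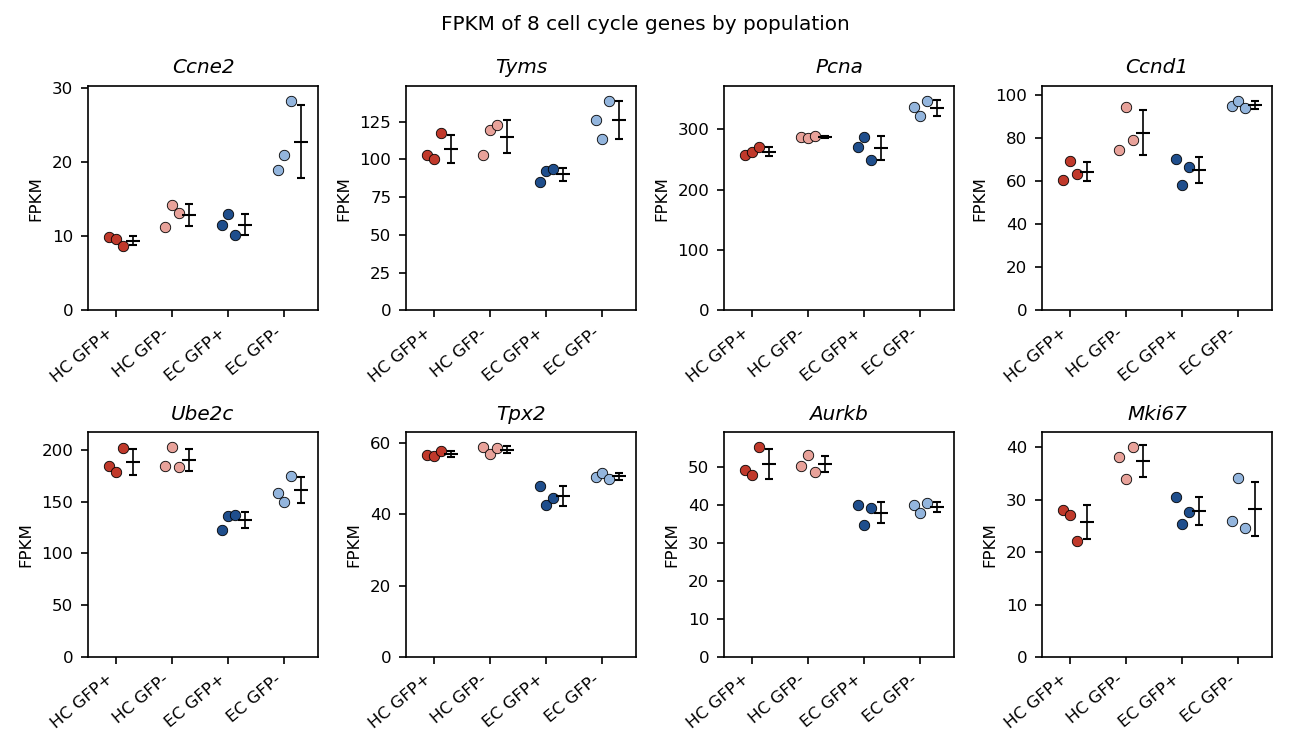
FPKM of 8 genes in the 12 libraries, by population; points are libraries and the bar beside them is the mean ± SD of 3. Ccne2, Tyms, Pcna and Ccnd1 are highest on average in EC GFP- with the values as deposited, Ube2c, Tpx2 and Aurkb are higher in both HC populations than in EC GFP+, and Mki67 is highest on average in HC GFP-.

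Among GFP+ cells, part of the mitotic genes stood higher in cluster cells than in endothelial cells, and 4 of the 20 G2/M estimates were below 0. Of the 42 genes 12 rose and none fell (limma), beside a background of 8.21% of tested genes higher and 6.09% lower (7.96% and 7.10% among genes with a mean of at least 5 FPKM). At an unadjusted p under 0.05, 19 were higher (background 16.6%) and none was lower (background 11.3%). Of the 20 G2/M genes 8 rose, of the 17 S phase genes 3 and of the 5 G1 genes 1. Ube2c showed the highest fold among the 11 called genes with a mean over 5 FPKM, at 1.42 on the means, followed by Aurkb at 1.34 and Aurka at 1.31. The median log2 difference was 0.17 for the set, 0.21 for the G2/M genes, 0.15 for the S phase genes and 0.05 for all tested genes. Groups were apart in 23 genes that were higher in HC GFP+ (background 19.6%) and in 2 that were lower (background 13.8%), Ccne2 and Ccnd3.

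The mitotic kinases and the checkpoint held 3 of the called genes. Aurkb, the kinase of the chromosomal passenger complex, stood at 49.3, 48.0 and 55.3 FPKM in HC GFP+ and 39.9, 34.8 and 39.4 in EC GFP+. Aurka, which acts at centrosomes and spindle poles, stood at 45.1, 39.2 and 49.4 against 34.0, 36.3 and 32.2. Bub1b (BubR1), part of the spindle checkpoint complex, stood at 41.1, 41.0 and 37.4 against 33.8, 33.6 and 30.3. In each gene every HC GFP+ library was above every EC GFP+ library, most narrowly in Aurka. The log2 rises were 0.41 ± 0.079 for Aurkb (limma, adjusted p = 0.00566), 0.37 ± 0.10 for Aurka (adjusted p = 0.0343) and 0.28 ± 0.070 for Bub1b (adjusted p = 0.0198). Plk1, the most abundant gene of this role, stood at 54.0, 49.0 and 55.2 against 45.3, 45.0 and 45.4, and its difference of 0.22 ± 0.082 was not called (adjusted p = 0.109) although the groups were apart.

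Among the spindle and cytokinesis genes, Tpx2, which activates Aurora A on the spindle, stood at 56.7, 56.3 and 57.7 FPKM in HC GFP+ and 47.9, 42.5 and 44.7 in EC GFP+. The HC GFP+ libraries lay close together and all above EC GFP+, with a log2 rise of 0.33 ± 0.061 (limma, adjusted p = 0.00447). Birc5 stood at 112, 118 and 126 FPKM in HC GFP+, above its EC GFP+ values, and rose by 0.26 ± 0.073 (adjusted p = 0.036). The motor genes Kif11 and Kif23 had estimates of 0.25 and −0.05 with overlapping groups. Of the anaphase-promoting complex genes Ube2c stood at 184, 179 and 202 FPKM, all well above its EC GFP+ libraries, and rose by 0.51 ± 0.081 (adjusted p = 0.00214). Cdc20, the activator of the complex, had an estimate of 0.14 with groups apart and was not called.

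Of the remaining G2/M genes Ccnb1 stood at 61.3, 62.1 and 66.7 FPKM in HC GFP+ and Top2a at 112, 108 and 109. Both lay above the EC GFP+ values given earlier, with log2 rises of 0.24 ± 0.071 for Ccnb1 (limma, adjusted p = 0.0468) and 0.24 ± 0.073 for Top2a (adjusted p = 0.0474). Cdk1, in contrast, stood at 208, 222 and 232 FPKM in HC GFP+ and overlapped EC GFP+, with a difference of 0.01 ± 0.087. Mki67, Cenpe and Cenpf also overlapped, with estimates of −0.11, −0.01 and −0.14.

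Among S phase genes, Cdk2 stood at 49.4, 52.3 and 48.1 FPKM in HC GFP+ and 41.6, 38.6 and 41.5 in EC GFP+, with groups apart and a log2 rise of 0.29 ± 0.074 (limma, adjusted p = 0.0226). Mcm10 (0.35, adjusted p = 0.0377) and Mcm4 (0.21, adjusted p = 0.0493) also rose, and Mcm6, at 113, 103 and 104 against 96.9, 107 and 88.8 FPKM, did not pass the test. All 4 nucleotide and histone mRNA genes had groups apart with estimates from 0.15 (Rrm2) to 0.24 (Tyms), none of them called. In HC GFP+ Tyms stood at 103, 100.3 and 117 FPKM and Rrm2 at 77.0, 78.1 and 72.8. Pcna, at 257, 261 and 270.2 FPKM in HC GFP+, overlapped EC GFP+. Cdk6 had the highest log2 estimate, 0.73 ± 0.21 (adjusted p = 0.0416), at 2.33 to 3.12 FPKM in HC GFP+ and 0.806 to 1.70 in EC GFP+, which are levels near the filter. The other 4 G1 genes had estimates from −0.13 to 0.11.

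With libraries scaled to an equal FPKM sum 7 genes were called higher and with median-ratio scaling 4. The median of the set stayed above that of all genes under every one of the 22 alternatives. Leaving out a GFP- library, the replicate block and the fit of only the 2 populations cannot move these medians, so those settings are no check of them. Ube2c, Tpx2 and Aurkb were called in all 22, while the other 9 calls were each lost without some libraries (from 3 libraries for Bub1b to 11 for Mcm4), and the count fell to 4 when replicate 1 or 2 of HC GFP+, or 1 or 3 of EC GFP+, was left out. All 8 macrophage markers were higher in HC GFP+ than in EC GFP+ (limma), with the sums given above, and so were 7 of 8 hematopoietic markers, which summed to 157 to 193 FPKM against 27.9 to 41.9, while 5 of 8 endothelial markers were lower. Their part in the result was not tested.

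**Figure D3:**
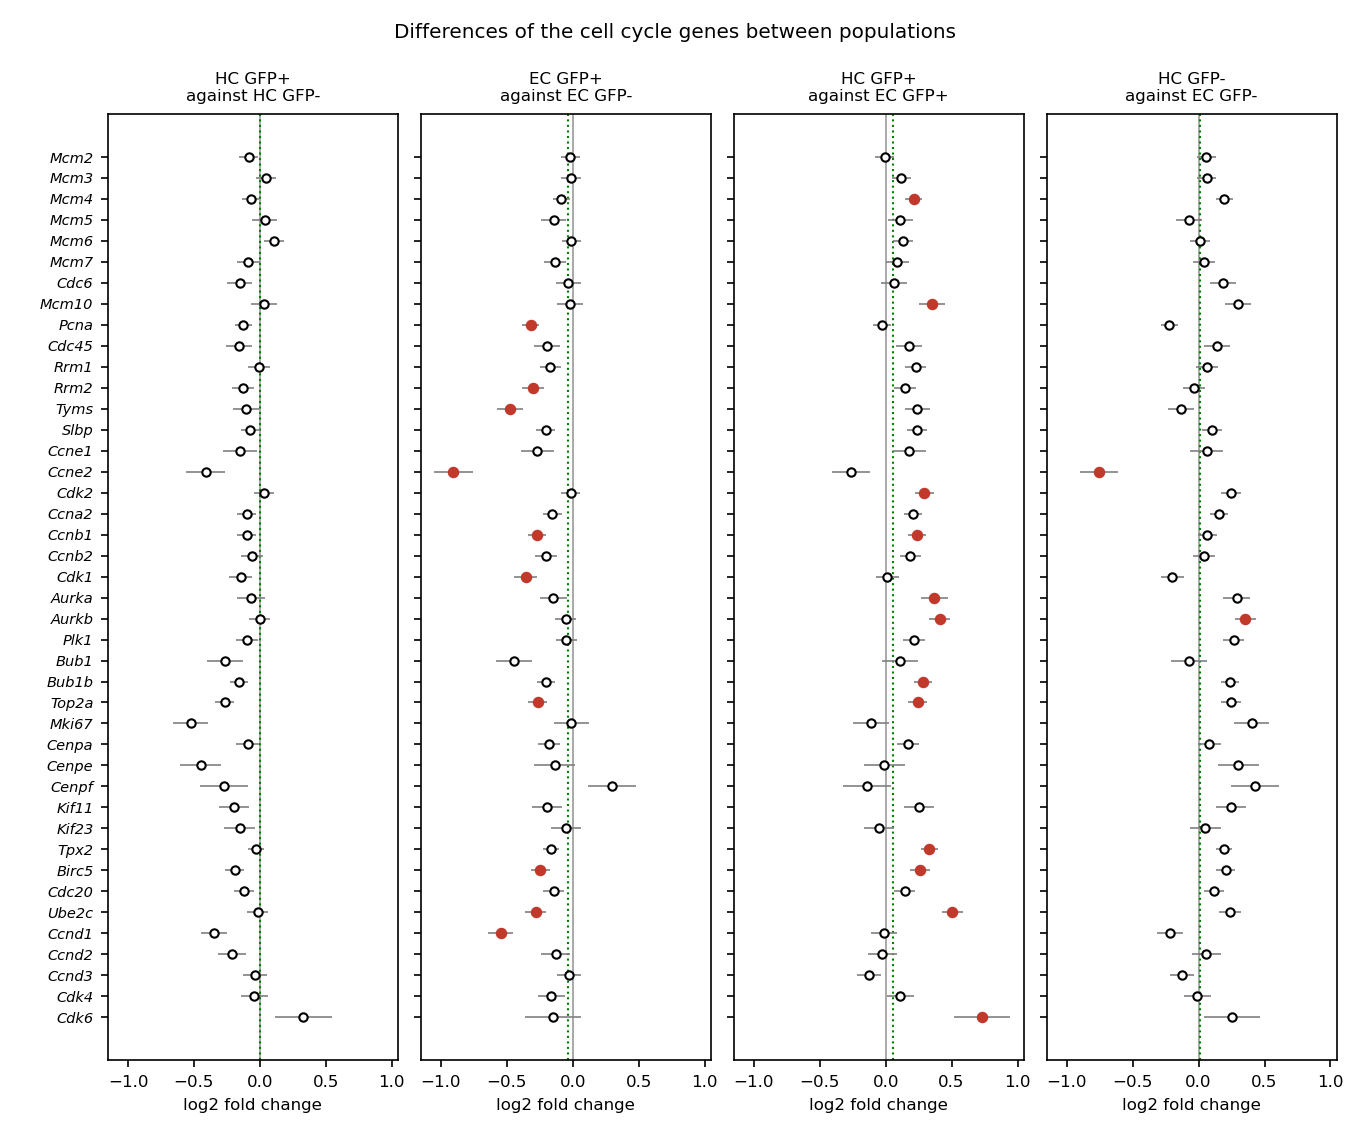
Estimated log2 fold change of each of the 42 genes in 4 comparisons with the values as deposited; bars are ± 1 SE, filled points passed an adjusted p of 0.05 in limma, and the dotted line is the median of all tested genes. Most estimates lie below the line between EC GFP+ and EC GFP- and above it between HC GFP+ and EC GFP+; with libraries scaled to an equal FPKM sum 24 of the 42 EC estimates are above 0, 23 of which were below it as deposited.

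Between the cluster populations, GFP+ against GFP-, no gene of the set was called in either direction (limma), beside backgrounds of 2.98% higher and 1.28% lower. At an unadjusted p under 0.05, 7 genes were lower (background 7.26%) and none was higher (background 9.75%). Of the 42 estimates 35 were below 0, with a median of −0.10 against 0.00 for all tested genes, and the groups were apart in 19 genes (background 23.6% in either direction). In 18 of these the HC GFP+ libraries lay below the HC GFP- libraries (background 10.5%), and in Mcm6 they lay above. All 5 chromosome and kinetochore genes were among the 18. With libraries scaled to an equal FPKM sum 30 of the 42 estimates were below 0, and no gene was called. The median of the set was then −0.06 against 0.04 for all genes.

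Mki67 came nearest to the threshold. It stood at 28.1, 27.0 and 22.1 FPKM in HC GFP+ and 38.2, 33.9 and 40.0 in HC GFP-, so that all GFP+ libraries were lower. The log2 difference was −0.53 ± 0.13 (limma, adjusted p = 0.0532). Top2a had 130.2, 129 and 137 FPKM in HC GFP-, above its HC GFP+ values, with a difference of −0.27 ± 0.073 (adjusted p = 0.0718). Cenpe, a kinetochore motor, had an estimate of −0.45 (adjusted p = 0.16) and Cenpf one of −0.27 (adjusted p = 0.507).

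The G1 cyclin gene Ccnd1 stood at 60.8, 69.4 and 63.5 FPKM in HC GFP+ and 74.5, 94.5 and 79.2 in HC GFP-. The groups were apart, with a difference of −0.35 ± 0.098 (limma, adjusted p = 0.0793). Ccne2 stood at 9.93, 9.62 and 8.73 FPKM against 11.3, 14.3 and 13.2, also apart, with a difference of −0.41 ± 0.15 (adjusted p = 0.174). The other 2 genes with an unadjusted p under 0.05 were Birc5 (137, 133 and 136 FPKM in HC GFP-, estimate −0.19) and Bub1b (44.6, 45.9 and 43.2 FPKM, estimate −0.16).

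Several genes that rose in HC GFP+ against EC GFP+ were close between the cluster populations. Aurkb stood at 50.4, 53.1 and 48.8 FPKM in HC GFP-, Tpx2 at 58.8, 56.9 and 58.6, and Ube2c at 185, 203 and 183. Each of these ranges overlapped that of HC GFP+, and the estimates were 0.00 ± 0.079 for Aurkb, −0.03 ± 0.061 for Tpx2 and −0.02 ± 0.081 for Ube2c. Mcm6, at 102, 99.8 and 94.8 FPKM in HC GFP-, had an estimate of 0.11 ± 0.074, and Cdk4 one of −0.04 ± 0.10. Mki67 was called lower after quantile normalization, after the length adjustment and without EC GFP- replicate 2 or 3, and Top2a without EC GFP+ replicate 2, through the shared estimate of the spread. Of 10 erythroid markers 8 were lower in HC GFP+ (limma), and the part of these transcripts in the differences was not tested.

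Between the GFP- populations, HC against EC, 1 gene rose and 1 fell (limma), beside backgrounds of 2.36% higher and 1.93% lower. Aurkb, at 39.9, 38.0 and 40.5 FPKM in EC GFP-, was lower there than in every HC GFP- library, with a log2 rise of 0.35 ± 0.079 in HC (adjusted p = 0.032). Ccne2 was lower in every HC GFP- library than in every EC GFP- library and fell by 0.76 ± 0.15 (adjusted p = 0.0186). These 2 comparisons of HC with EC and the 2 comparisons by GFP share their libraries pairwise, so their results are not independent. In 14 genes the HC GFP- libraries lay above the EC GFP- libraries without overlap (background 13.4%), 10 of them G2/M genes, and in 2 below them (Ccne2 and Pcna, background 10.4%).

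The G2/M genes had a median difference of 0.22 between the GFP- populations, the S phase genes one of 0.06 and all tested genes one of 0.01. At an unadjusted p under 0.05, 14 genes were higher in HC GFP- (background 10.1%), 11 of them G2/M genes, and 3 were lower (background 9.05%). Tpx2 stood at 50.3, 51.6 and 49.8 FPKM in EC GFP-, below all HC GFP- libraries (estimate 0.20 ± 0.061, limma, adjusted p = 0.104). Plk1 stood at 56.7, 60.2 and 52.8 FPKM in HC GFP- and 48.2, 42.3 and 50.4 in EC GFP- (estimate 0.26 ± 0.082, adjusted p = 0.101). Both had groups apart and missed the threshold. Bub1b, at 37.5, 36.5 and 39.0 FPKM in EC GFP-, had an estimate of 0.24 (adjusted p = 0.0871) and Aurka, at 47.8, 47.5 and 44.4 against 40.1, 33.2 and 41.0, one of 0.29 (adjusted p = 0.15).

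Pcna went the other way, at 286, 286 and 289 FPKM in HC GFP- below all 3 EC GFP- libraries (estimate −0.22 ± 0.065, limma, adjusted p = 0.0857). Cdk1 stood at 223, 256 and 255 FPKM in HC GFP-, Tyms at 103, 119 and 123, and Rrm2 at 82.9, 88.4 and 77.9, ranges that overlapped those of EC GFP-. Cdk2, at 47.1, 52.8 and 46.8 against 39.6, 43.8 and 39.8 FPKM, had groups apart (estimate 0.25, adjusted p = 0.0951), and Ccnb1, at 67.5, 69.0 and 67.3 FPKM in HC GFP-, overlapped. Scaling to an equal FPKM sum moved the median of all genes by 0.12 in this comparison, and 11 genes of the set were then called higher and 1, Ccne2, lower. The median of the set was then 0.23, against 0.14 for all genes. The backgrounds given for the deposited values do not apply to these counts. The call of Aurkb was lost without any 1 of the 6 GFP- libraries and that of Ccne2 without HC GFP- replicate 1 or 3.

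**Figure D4:**
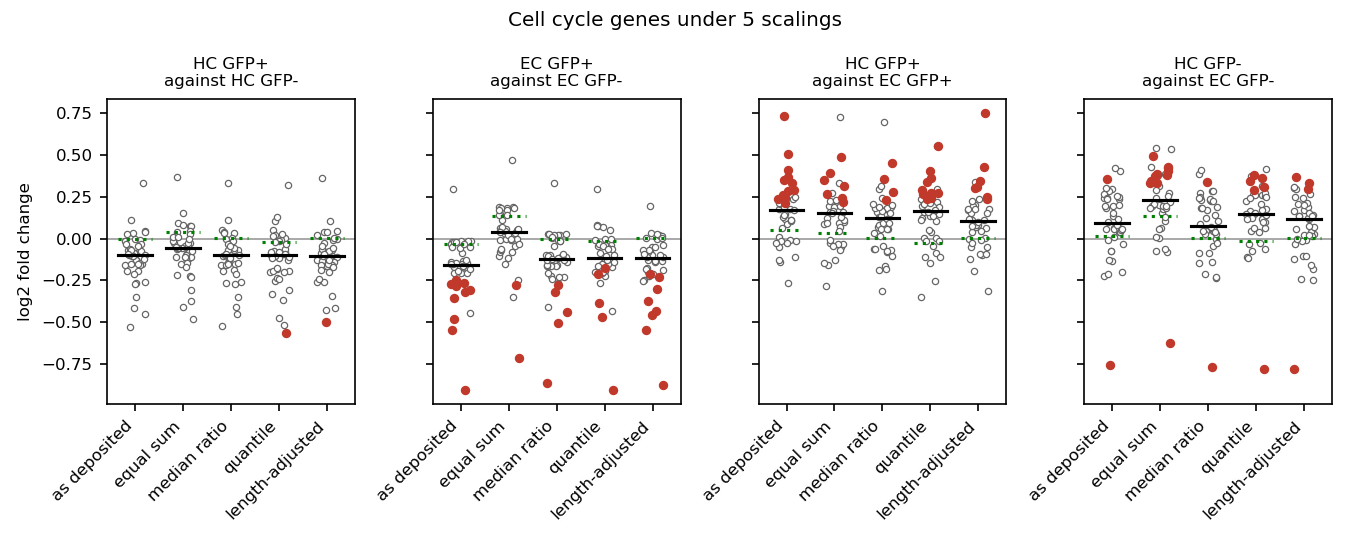
Log2 fold change of the 42 genes in 4 comparisons under 5 scalings; filled points passed an adjusted p of 0.05, the solid line is the median of the set and the dotted line the median of all tested genes. With libraries scaled to an equal FPKM sum the EC median of the set moves from −0.16 to 0.04 and that of all genes from −0.03 to 0.14. In the HC GFP- against EC GFP- comparison the called genes go from 1 to 11 higher. There the median of all genes goes from 0.01 to 0.14.

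Whether the GFP difference itself differed between cluster cells and endothelium was tested as an interaction. No gene of the set passed (limma), beside backgrounds of 0.188% higher and 0.339% lower, and at an unadjusted p under 0.05 there were 3 genes with a positive difference (background 6.25%) and 2 with a negative one (background 5.24%). The positive ones were Ccne2 (0.49 ± 0.21, from −0.41 in HC and −0.91 in EC), Tyms (0.37 ± 0.14, from −0.11 and −0.48) and Ube2c (0.27 ± 0.11, from −0.02 and −0.28). The negative ones were Cenpf (−0.57 ± 0.26, from −0.27 and 0.30) and Mki67 (−0.51 ± 0.19, from −0.53 and −0.01). The adjusted p-values of these 5 lay between 0.315 and 0.43, so for no gene of the set were the GFP differences of HC and EC shown to differ. Scaling to an equal sum moved the median of all genes by −0.14 here and that of the set from 0.06 to −0.10.

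The inhibitors of CDKs oppose the cyclin-driven kinases, and 1 of them, Cdkn1c, was called in both comparisons with EC GFP-. Of 7 listed inhibitor genes 6 had values, and 4 were tested. Cdkn1c (p57), which restrains CDKs and is an imprinted gene, stood at 261, 239 and 220.1 FPKM in HC GFP+, 211, 197 and 213 in HC GFP-, 258, 246 and 241 in EC GFP+ and 377, 336 and 340.3 in EC GFP-. EC GFP- was highest without overlap and HC GFP- lowest without overlap. Cdkn1c fell in EC GFP+ against EC GFP- by 0.50 ± 0.077 on the log2 scale (limma, adjusted p = 0.00189) and in HC GFP- against EC GFP- by 0.76 ± 0.077 (adjusted p = 0.000925), and both calls held under all 22 alternatives. Between the cluster populations the estimate was 0.21 ± 0.077 with HC GFP+ higher (adjusted p = 0.184).

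The difference of the GFP effects on Cdkn1c was 0.70 ± 0.11 (limma, adjusted p = 0.018). It was not called with libraries scaled to an equal FPKM sum, with or without erythroid genes in that sum, after quantile normalization, or without any 1 of HC GFP+ replicate 2, HC GFP- replicate 1, EC GFP+ replicate 2 and EC GFP+ replicate 3, where the estimates lay between 0.54 and 0.72.

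**Figure D5:**
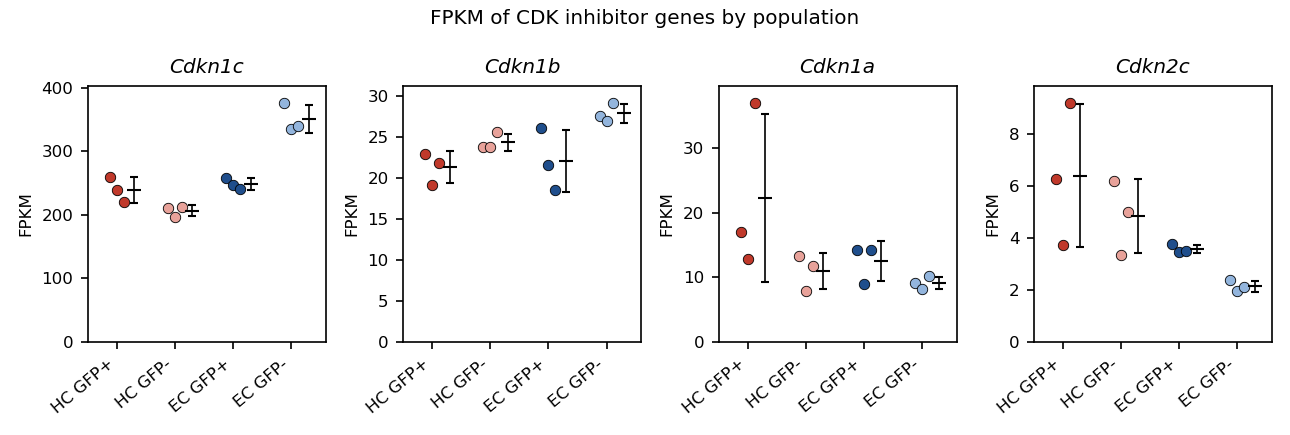
FPKM of the 4 tested CDK inhibitor genes in the 12 libraries, by population; points are libraries and the bar beside them is the mean ± SD of 3. Cdkn1c is highest in EC GFP- and Cdkn2c lowest there, while Cdkn1a in HC GFP+ is spread widely by replicate 3.

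The other inhibitor genes were at lower levels and none was called. Cdkn1b (p27) stood at 22.9, 19.1 and 21.8 FPKM in HC GFP+, 23.8, 23.7 and 25.5 in HC GFP-, 26.0, 21.6 and 18.5 in EC GFP+ and 27.5, 26.9 and 29.1 in EC GFP-, with estimates by GFP of −0.19 in HC and −0.34 in EC. Cdkn1a (p21), a target of p53, stood at 16.9, 12.8 and 37.0 FPKM in HC GFP+ and 13.3, 7.96 and 11.7 in HC GFP- (estimate 0.84 ± 0.33, limma, adjusted p = 0.208), with replicate 3 of HC GFP+ far above the rest. In endothelium it stood at 14.3, 8.89 and 14.3 against 9.09, 8.24 and 10.1. Cdkn2c (p18) stood at 6.27, 3.73 and 9.19 FPKM in HC GFP+, 6.19, 3.34 and 5.0 in HC GFP-, 3.75, 3.46 and 3.48 in EC GFP+ and 2.38, 1.96 and 2.10 in EC GFP-. Its HC GFP- and EC GFP+ libraries were all above EC GFP-, with estimates of 0.86 ± 0.25 (adjusted p = 0.084) and 0.54 ± 0.25 (adjusted p = 0.187). Cdkn2a and Cdkn2b were at or below 1.84 FPKM in every library and were not tested, and Cdkn2d was not analysed here.

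Of 19 retinoblastoma, E2F and MuvB pathway genes, 1 rose (5.26%, background 6.96%) in EC GFP+ against EC GFP- and none fell, and 3 rose (15.8%, background 8.21%) in HC GFP+ against EC GFP+. In endothelium the called gene was E2f2 (0.53 ± 0.15, limma, adjusted p = 0.0366), an activating E2F. Among GFP+ cells the called genes were E2f1 (0.39, adjusted p = 0.0201), Foxm1 (0.44, adjusted p = 0.032), the mitotic transcription factor, and E2f8 (0.57, adjusted p = 0.0485), a repressor E2F. Each of these 4 calls was lost without some libraries, and of the alternatives 13 of 22 kept E2f2, 17 kept E2f1, 14 kept Foxm1 and 4 kept E2f8, with Foxm1 and E2f8 lost under equal-sum scaling. The medians of the list were 0.00 and 0.10 in those comparisons, against −0.03 and 0.05 over all genes, and no gene of it was called by limma in the other comparisons, with 2 lower in HC by GFP (background 7.26%) and 4 higher in HC GFP- against EC GFP- (background 10.1%) at an unadjusted p under 0.05.

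Of 33 further replication genes 12 fell in EC GFP+ against EC GFP- (36.4%, background 6.51%) and none rose (background 6.96%), with a median of −0.29 against −0.03 over all genes. With libraries scaled to an equal FPKM sum 8 of the 12 calls were lost. Among those with the smallest p were Tipin (−0.55 ± 0.087) and Orc6 (−0.56 ± 0.096), of the fork protection and origin recognition complexes, the flap endonuclease Fen1 (−0.45 ± 0.083), 2810417H13Rik (−0.37 ± 0.074), listed here under its older symbol and encoding the PCNA-associated factor, and the primase subunit Prim1 (−0.34 ± 0.073). Their adjusted p-values ran from 0.00231 to 0.0109 (limma), and the calls of Tipin, Orc6 and Fen1 held under all 22 alternatives. In all, 9 of the 33 rose in HC GFP+ against EC GFP+ (27.3%, background 8.21%), with a median of 0.21 against 0.05 over all genes, and 3 of these calls were lost under equal-sum scaling. They were led by Prim1 (0.40) and Dbf4 (0.41), the activator of the Cdc7 kinase, both called under all 22 alternatives. In HC GFP- against EC GFP- 1 rose (background 2.36%), the histone chaperone gene Chaf1a (0.36, limma, adjusted p = 0.0368). Between the cluster populations none was called. There, 1 was higher (background 9.75%) and 2 were lower (background 7.26%) at an unadjusted p under 0.05.

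Of 38 further mitotic genes 9 fell in EC GFP+ against EC GFP- (23.7%, background 6.51%) and none rose (background 6.96%), with a median of −0.25. With libraries scaled to an equal FPKM sum 8 of the 9 calls were lost, all but that of Cks2, which was lost after the length adjustment. As deposited they were led by Cks2 (−0.46 ± 0.081), a CDK subunit, the condensin gene Smc4 (−0.70 ± 0.14), Hmmr (−0.56 ± 0.12), a spindle protein, the checkpoint gene Mad2l1 (−0.43 ± 0.097) and the kinetochore gene Ndc80 (−0.42 ± 0.10), with adjusted p-values from 0.00452 to 0.0237 (limma). In HC GFP+ against EC GFP+ 6 rose (15.8%, background 8.21%), with a median of 0.23, and 1 of these calls was lost under equal-sum scaling. The first 2 by p were Cdca8 (0.52 ± 0.075, adjusted p = 0.00119) and Incenp (0.56 ± 0.090, adjusted p = 0.00214), which encode the partners of Aurora B and survivin in the chromosomal passenger complex, and both were called under all 22 alternatives. Incenp also rose in HC GFP- against EC GFP- (0.48 ± 0.090, limma, adjusted p = 0.0156). No gene of the list was called by limma between the cluster populations, with 5 lower at an unadjusted p under 0.05 (background 7.26%). The 4 genes of that complex, Aurkb, Birc5, Cdca8 and Incenp, were thus each called higher in HC GFP+ than in EC GFP+, a grouping made after their values were seen. The call of Birc5 was kept in 11 of the 22 alternatives, those of Aurkb, Cdca8 and Incenp in all 22.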

How the data were processed

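Poly(A) RNA-seq of 12 libraries was analysed, 3 pools in each of 4 sorted populations, grouped by title. What the authors deposited is a table of FPKM by gene symbol. The tools Cufflinks, featureCounts, edgeR and DESeq and the build mm9 are named, per the submitters' processing notes, without roles or versions. How reads were aligned, which gene models were used, whether counting used strand, and how libraries were scaled is not given in the sources used here. As deposited, the values are not whole multiples of reads, so depth is unknown and limits the precision by an unknown amount, and no count test was run.

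From these, log2(FPKM + 1) was computed for the deposited values, and limma 3.58.1 (R 4.3.3; moderated, with an intensity trend, two-sided) was fitted over all 12 libraries with 4 group means, on 13278 genes with an FPKM of at least 1 in at least 3 libraries. Fold changes are on this scale, which understates those of low genes. Adjusted p-values are Benjamini-Hochberg over all tested genes of a comparison, with a threshold of 0.05. Errors are SE of the fit unless named SD. The test was checked on simulated data with independent noise for each gene. These held no shift of whole libraries by scaling, cell types or transcript length, so the check does not bear on such shifts. All members could be named; values in every library are given for the 14 called members with the smallest adjusted p and the most abundant member of each role, and some others were added after their values were seen. Up to 6 called genes of each pathway list are named, and 1 that this rule would name is not reported here.

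The members, pathway lists and marker lists (hematopoietic, endothelial, erythroid, macrophage and mesenchyme) were chosen with earlier results of these data known. Alternatives were equal-sum scaling with and without erythroid genes, median-ratio scaling, quantile normalization, a pseudocount of 0.1, no filter, a mean FPKM of at least 5, a fit of only the populations compared, the replicate number as a block, and leaving out each library. An adjustment for transcript length (a loess fit on the lengths of GENCODE M21 transcripts) was added after the data were seen. Promoters came from RefSeq GRCm38.p6, and no coordinates of mm9 were used. Python 3.11.15 and pandas 2.3.3 were used for promoters and figures.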

Additional observations from a re-analysis of the deposited data

Results flagged for a closer look

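Cdkn1c, the gene of the CDK inhibitor p57, had a GFP difference that differed between cluster cells and endothelium with the values as deposited, but not under every alternative. The difference between GFP+ and GFP- was 0.21 on the log2 scale in HC and −0.50 in EC, and the test of the difference itself gave 0.70 ± 0.11 (limma, adjusted p = 0.018). This call was kept in 14 of 21 alternatives and lost under both equal-sum scalings, quantile normalization and without any 1 of 4 libraries. Mean levels were 239.8 FPKM in HC GFP+, 207 in HC GFP-, 249 in EC GFP+ and 351 in EC GFP-.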

How the results depend on the processing

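Every count of called members below is from limma. The share of all genes called under each alternative is not given beside these counts, and the backgrounds of the deposited values do not apply to them. In EC GFP+ against EC GFP- the 10 lower members became 2 with libraries scaled to an equal FPKM sum, 3 when the erythroid markers were left out of that sum, 5 with median-ratio scaling, 5 with quantile normalization and 3 when only the 2 populations were fitted. In HC GFP+ against EC GFP+ the 12 higher members became 7 and 7 under the 2 equal-sum scalings, 4 with median-ratio scaling, 4 when only the 2 populations were fitted and 7 after the length adjustment. In HC GFP- against EC GFP- the 1 higher member became 11 and 12 under the equal-sum scalings, 5 with quantile normalization, 3 after the length adjustment and 0 when only the 2 populations were fitted, where the 1 lower member also became 0. In HC GFP+ against HC GFP- the 0 lower members became 1 with quantile normalization and 1 after the length adjustment. The equal-sum scaling moved the median of all genes by 0.17, 0.12 and −0.14 in the EC comparison, the GFP- comparison and the interaction; apart from that and the fewer libraries of the 2-population fits, the cause was not tested.

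With 1 library left out in turn, the lower members in EC ranged from 4 to 11, the higher members in HC GFP+ against EC GFP+ from 4 to 12, the higher and the lower members in HC GFP- against EC GFP- from 0 to 1 each, and the lower members in HC GFP+ against HC GFP- from 0 to 1. A population left with 2 libraries shares the estimate of the spread with the others.

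The replicate numbers were not shown to pair the libraries: deviations of libraries with the same number correlated between −0.06 and 0.27. With the replicate block 7 members were called higher in HC GFP+ against EC GFP+, and 9 lower in EC GFP+ against EC GFP-. The depth of the libraries is unknown, so it could not be said which differences the reads could resolve.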
